A study of Homo sapiens with 6 samples.

Results

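With Agrin knockdown in HaCaT keratinocytes most of the listed enzymes of cholesterol synthesis had higher transcript levels, while most of the listed fatty acid genes did not pass the test. The genes described here are 36 named enzymes and lipid handling proteins of cholesterol and fatty acid synthesis, out of 14168 genes in the expression table. They were taken by name along the mevalonate, sterol and fatty acid branches, and all 36 reached 0.5 CPM (reads of a gene scaled to a common library size) in at least 3 of the 6 libraries, so that none was lost to the filter. Of the 36, 21 were higher in siAgrin than in siControl libraries, 2 were lower and 13 did not pass the test. Over all 13050 tested genes 9.14% were called higher and 9.07% lower. The number of members called higher was 16 without siAgrin 3, siControl 2 or siControl 3, and no member was called lower without siAgrin 3 or without any 1 of the siControl libraries.

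HaCaT is an established, immortalised line of human keratinocytes. The compared groups were cells that received siRNA against Agrin (siAgrin, 3 libraries) and cells that received a control siRNA (siControl, 3 libraries), both grown in serum-containing medium, named RPMI in the sample labels and DMEM in the study's methods. Polyadenylated RNA was sequenced, and neither the Agrin siRNA used for these libraries nor their time of harvest is given in the sources used here. Nothing in the labels says that the 3 libraries of a group came from separate cultures, so the p-values measure the spread between these libraries only. Calls were made in limma on log2(CPM + 0.5), wherever the adjusted p of a gene was under 0.01, and every log2 fold change is siAgrin over siControl on that scale, which understates the change of genes near 0.5 CPM.

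Cholesterol and fatty acids both start from cytosolic acetyl-CoA. In the mevalonate branch acetyl-CoA is built into isoprenoid units, which are joined to farnesyl diphosphate. The sterol branch makes squalene from it, closes the rings and trims the product to cholesterol, while fatty acid synthase builds chains that desaturases and elongases then modify. Many of these genes are known targets of the SREBP transcription factors, which are released from the endoplasmic reticulum when membrane sterol is low and which act together with NF-Y and Sp1 at promoters. In epidermis cholesterol, fatty acids and ceramides form the lipid barrier of the outer layer.

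The siAgrin libraries held 403, 412 and 387 CPM of AGRN, the targeted transcript, against 797, 833 and 833 CPM in the siControl libraries. The siAgrin mean was 48.8% of the siControl mean (log2 fold change -1.03, limma adjusted p = 2.6e-05). In an exact permutation test of AGRN over all 10 possible assignments the two-sided p was 0.1, which 3 against 3 libraries cannot go below. Libraries held 40958553 to 43312708 reads in the listed genes. A single read was worth 0.0215 to 0.0221 CPM, so that counting error is not negligible for the members with low levels, such as ELOVL4, FADS2, TM7SF2 and HSD17B7. All 10 keratinocyte markers were tested, and their summed level was 13274 to 15585 CPM in siAgrin and 11856 to 12902 CPM in siControl libraries, with 3 higher and none lower. The 7 fibroblast markers summed to 9.47 to 46.7 CPM in siAgrin and 12.2 to 19.6 CPM in siControl libraries. The 2 immune markers analysed summed to 24.9 to 36.6 CPM and 35.4 to 46.6 CPM in these groups, and the endothelial marker TEK was at most 0.0437 CPM. None of the fibroblast, immune or melanocyte markers tested was called, and their part in the results below was not tested.

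The promoters of these genes were read from RefSeq (GRCh38.p14), which held an entry for 32 of the 36. ACAT2, FDFT1, SQLE and FASN had none. The first entry listed for each gene was used, which covers 250 bases before and 50 bases after an annotated start. Whether these cells use that start was not tested. Parts of 6 of them are printed because these genes span the response: HMGCS1, MVD, MSMO1 and EBP were higher in siAgrin, SCD was lower and PMVK differed by less than its spread. They were picked after their values were seen. Each stretch runs 5′ to 3′ on the strand of the gene, lies upstream of both the RefSeq start and the GENCODE gene, and has the letters CCAAT, or ATTGG for the other strand, in capitals. CCAAT is the core of the box bound by NF-Y.
HMGCS1, chr5:43313513-43313662, minus strand: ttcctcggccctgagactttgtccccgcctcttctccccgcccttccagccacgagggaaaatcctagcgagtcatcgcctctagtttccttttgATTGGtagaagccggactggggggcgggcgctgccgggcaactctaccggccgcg
MVD, chr16:88663162-88663341, minus strand: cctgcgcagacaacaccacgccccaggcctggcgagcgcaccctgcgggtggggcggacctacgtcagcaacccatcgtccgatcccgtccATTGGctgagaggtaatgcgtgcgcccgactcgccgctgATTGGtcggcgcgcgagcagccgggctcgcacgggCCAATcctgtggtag
MSMO1, chr4:165327419-165327666, plus strand: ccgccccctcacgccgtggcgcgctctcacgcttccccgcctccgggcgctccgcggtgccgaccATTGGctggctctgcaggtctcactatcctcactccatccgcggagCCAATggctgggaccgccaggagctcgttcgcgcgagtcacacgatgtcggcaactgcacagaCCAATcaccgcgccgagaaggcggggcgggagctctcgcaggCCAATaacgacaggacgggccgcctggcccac
EBP, chrX:48521558-48521798, plus strand: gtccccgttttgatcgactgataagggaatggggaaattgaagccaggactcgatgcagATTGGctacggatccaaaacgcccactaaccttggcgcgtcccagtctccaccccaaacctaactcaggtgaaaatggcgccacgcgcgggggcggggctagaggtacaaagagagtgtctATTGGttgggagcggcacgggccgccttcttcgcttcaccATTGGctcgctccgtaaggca
SCD, chr10:100346983-100347232, plus strand: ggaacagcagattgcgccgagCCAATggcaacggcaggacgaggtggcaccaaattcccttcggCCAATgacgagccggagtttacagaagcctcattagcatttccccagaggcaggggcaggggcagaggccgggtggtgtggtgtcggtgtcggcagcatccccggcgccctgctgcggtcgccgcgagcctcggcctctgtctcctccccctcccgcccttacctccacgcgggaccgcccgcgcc
PMVK, chr1:154936720-154936969, minus strand: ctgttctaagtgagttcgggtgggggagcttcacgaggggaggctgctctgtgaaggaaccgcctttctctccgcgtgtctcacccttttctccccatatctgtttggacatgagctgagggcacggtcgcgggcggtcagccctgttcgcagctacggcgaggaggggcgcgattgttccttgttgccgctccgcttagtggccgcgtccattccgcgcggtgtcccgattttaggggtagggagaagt
The stretch of MSMO1 held 4 matches, those of MVD and EBP 3 each, that of SCD 2, that of HMGCS1 1 and that of PMVK none. The stretches run from 150 bases for HMGCS1 to 250 for SCD and PMVK, so these counts are not comparable. HMGCS1 held a further match, 100 bases upstream of the RefSeq start, outside its printed stretch. These 6 do not stand for all members. CYP51A1, IDI1, ME1 and PLIN2 were higher with no match in their entries, while ELOVL4 and ELOVL5 held 2 each and did not pass. The entry of IDI1 lies wholly upstream of its GENCODE gene, and that of PLIN2 lies inside its gene. Neither covers the GENCODE start. Some entries with a match, such as those of ACLY and DHCR7, do not cover it either.

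Of 20 genes in the mevalonate and sterol branches 16 were higher in siAgrin libraries and 4 did not pass. None was lower in limma, edgeR or DESeq2, nor at an unadjusted limma p below 0.05. In bulk RNA a lower or higher level in each cell cannot be told apart from a change in the share of cells that hold the transcript. Of the 20 genes 16 had every siAgrin library above every siControl library, and 2 had every siAgrin library below. Over all tested genes these shares were 25.0% and 24.9%. The 16 were those called higher, and a call with 3 against 3 libraries largely requires such a gap, so it adds no separate support. The median log2 fold change over the 20 genes was 0.63, against -0.0019 over all tested genes. These 16 calls were also made by edgeR and by DESeq2 on whole reads. Of the 36 genes HMGCS1, SQLE and MSMO1 were called higher with a log2 fold change above 1, as were 0.291% of all tested genes.

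**Figure D1:**
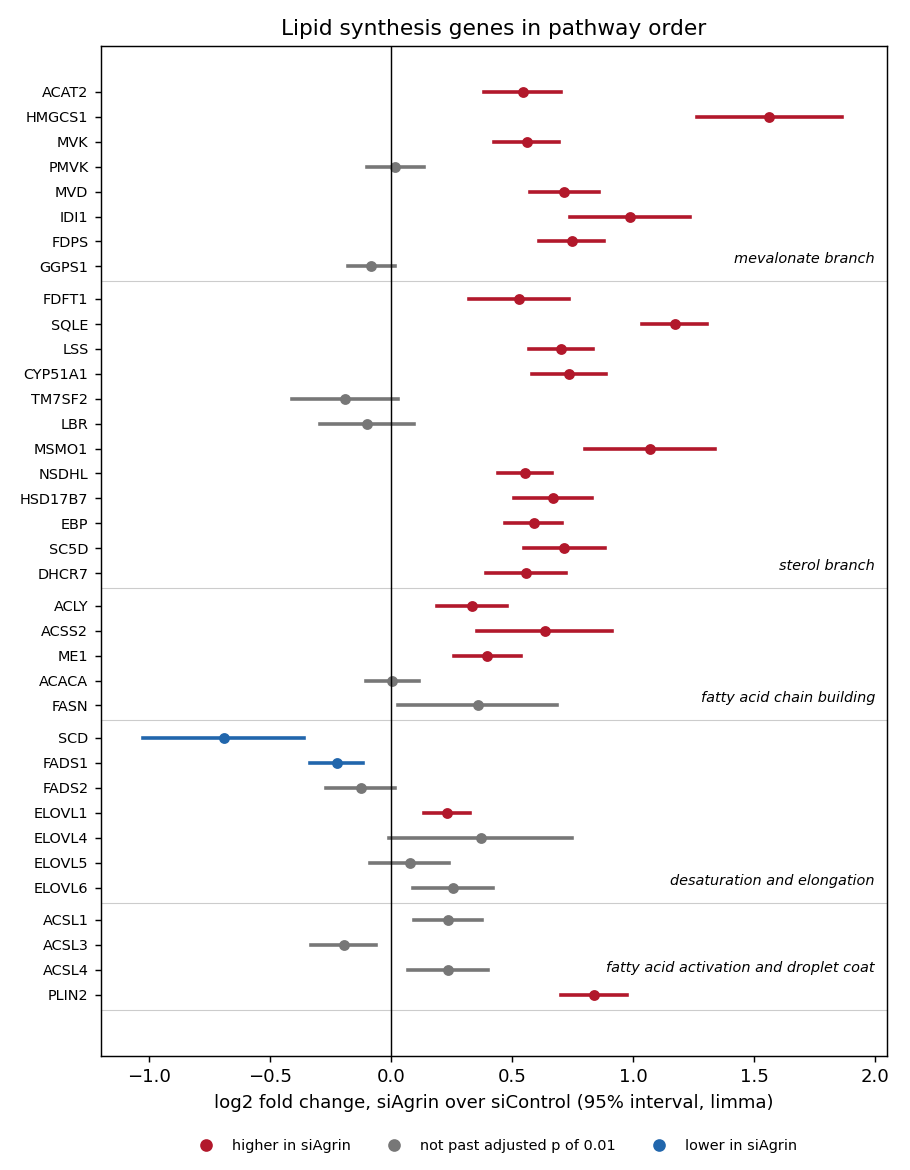
Log2 fold change of siAgrin over siControl (x axis) with its 95% interval from limma for each of the 36 genes, in pathway order from top to bottom. In the upper 2 blocks 16 of 20 genes were called higher and lie to the right of 0 with their whole interval, whereas the intervals of SCD and FADS1 in the desaturation block lie to the left.

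In the mevalonate branch 6 of 8 genes were higher in siAgrin, and the summed level of the branch was 928, 1090.0 and 1063 CPM in siAgrin libraries against 601, 524 and 539.6 CPM in siControl libraries. The groups did not overlap, and siAgrin 1 was the lowest of its group. ACAT2, the cytosolic thiolase that joins acetyl-CoA units, had 83.1, 74.5 and 78.6 CPM in siAgrin libraries and 59.1, 50.6 and 52.2 CPM in siControl libraries. Its log2 fold change was 0.54 (standard error 0.068, limma adjusted p = 0.0011). ACAT2 overlaps TCP1 and SOD2 on the other strand of chromosome 6, and the strand setting of the counting is not given in the sources used here.

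HMGCS1, the synthase that makes HMG-CoA, had the largest fold change of the 36. It lies on the minus strand of chromosome 5 (GRCh38, 43287470 to 43313512) and measured 273, 372 and 374 CPM in siAgrin libraries against 129, 103 and 109.6 CPM in siControl libraries. Every siAgrin library was above every siControl library, and siAgrin 1 was the lowest of its group. The mean was 339.7 ± 57.5 CPM in siAgrin and 114 ± 13.3 CPM in siControl libraries (SD, n = 3 each), a log2 fold change of 1.56 (standard error 0.13, limma adjusted p = 2.5e-04).

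The next steps held both called and uncalled genes. Mevalonate kinase, MVK, had 47.2, 50.8 and 49.5 CPM in siAgrin libraries and 35.5, 33.0 and 31.1 CPM in siControl libraries (log2 fold change 0.56, limma adjusted p = 5.3e-04). MVK overlaps MMAB on the other strand. PMVK, the kinase that acts on its product, had 24.6, 23.7 and 23.1 CPM in siAgrin libraries and 24.0, 23.9 and 22.7 CPM in siControl libraries. These values overlap, and the 95% interval of the PMVK log2 fold change ran from -0.10 to 0.14. MVD, the decarboxylase that follows, had 65.1, 75.9 and 67.7 CPM in siAgrin libraries and 43.0, 42.4 and 40.8 CPM in siControl libraries (log2 fold change 0.72, limma adjusted p = 2.8e-04).

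IDI1 and FDPS, which isomerise and join the isoprenoid units, were both higher. The isomerase gene IDI1 had 148, 179 and 176 CPM in siAgrin libraries and 97.4, 74.1 and 82.1 CPM in siControl libraries, a ratio of means of 1.98 (limma adjusted p = 6.3e-04). Farnesyl diphosphate synthase, FDPS, had 233, 259 and 237 CPM in siAgrin libraries and 153, 138 and 142 CPM in siControl libraries, a log2 fold change of 0.75 (standard error 0.058, limma adjusted p = 2.1e-04). GENCODE lists 8 pseudogenes named after FDPS and 3 after IDI1, whose reads could be shared with the parent gene. The same holds for 3 pseudogenes named after CYP51A1 and 1 each after SCD and ACSL3. GGPS1 draws farnesyl diphosphate off to geranylgeranyl diphosphate, the lipid that anchors many small GTPases. It had 54.1, 54.8 and 57.6 CPM in siAgrin libraries and 59.6, 58.2 and 58.6 CPM in siControl libraries, and did not pass (log2 fold change -0.08, 95% interval -0.18 to 0.01). The ratio of FDPS to GGPS1, singled out after the values were seen, was 4.30, 4.73 and 4.11 in siAgrin libraries and 2.57, 2.37 and 2.43 in siControl libraries (exact permutation test, two-sided p = 0.1, the smallest possible).

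**Figure D2:**
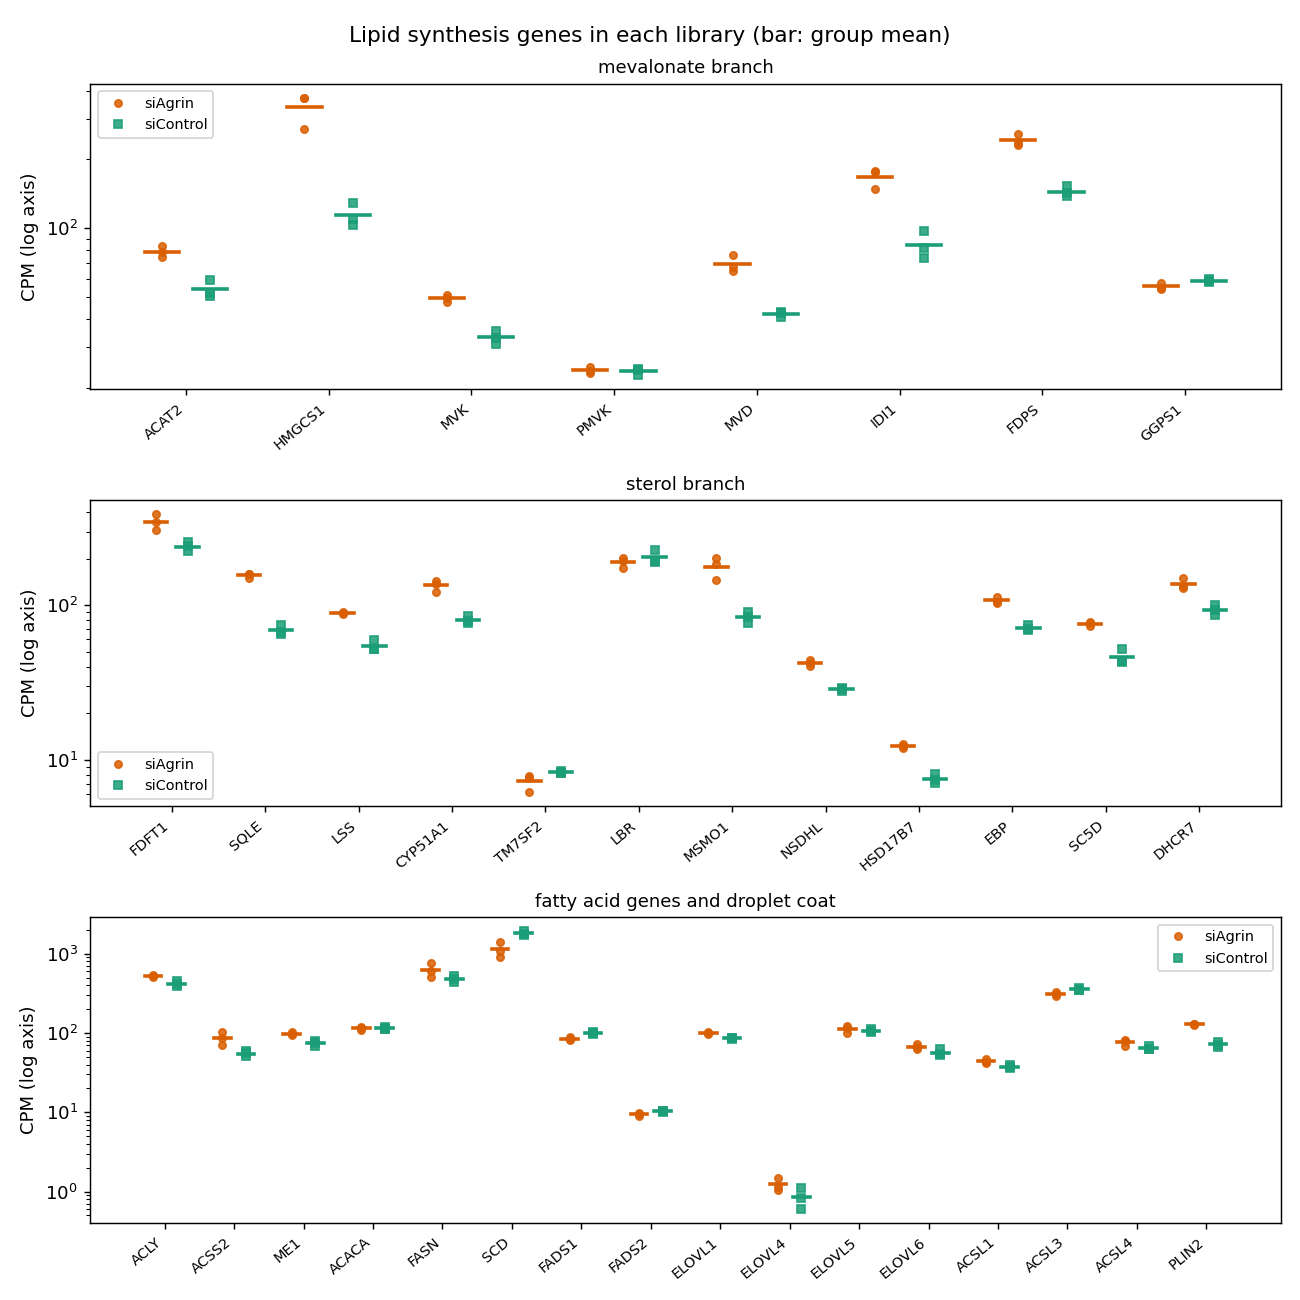
CPM (log axis) of each of the 36 genes in each library, with siAgrin libraries as circles to the left and siControl libraries as squares to the right, and the group mean as a bar. The siAgrin points of HMGCS1, SQLE and MSMO1 lie above all siControl points, whereas PMVK, LBR and ACACA overlap.

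In the sterol branch 10 of 12 genes were higher, and the 2 that did not pass were TM7SF2 and LBR, the enzymes that share a single step. The branch summed to 1385, 1552 and 1488 CPM in siAgrin libraries and to 1066, 927 and 965 CPM in siControl libraries. FDFT1, squalene synthase, stands at the entry on chromosome 8. FDFT1 had 305, 387 and 348 CPM in siAgrin libraries and 256, 223 and 240.2 CPM in siControl libraries (log2 fold change 0.53, limma adjusted p = 0.0037). FDFT1 is the only one of the 16 higher genes that lost its call with a library left out, at adjusted p-values of 0.023 without siAgrin 3, 0.021 without siControl 2 and 0.019 without siControl 3 (limma). SQLE, squalene epoxidase and a rate-limiting step, had 149, 160.0 and 159 CPM in siAgrin libraries against 74.6, 65.2 and 67.4 CPM in siControl libraries. Its libraries lay close together within each group, and SQLE had the smallest p of the 36 genes (log2 fold change 1.17, standard error 0.059, limma adjusted p = 3.7e-05). The ratio of SQLE to FDFT1 was 0.490, 0.413 and 0.458 in siAgrin libraries and 0.291, 0.293 and 0.281 in siControl libraries (exact permutation test, two-sided p = 0.1, the smallest possible). This pair, too, was singled out after the values were seen, and 7 such ratios were computed in all, with a Benjamini-Hochberg adjusted p of 0.14 for each ratio at this floor.

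LSS, which closes the squalene epoxide to lanosterol, had 87.5, 89.7 and 89.4 CPM in siAgrin libraries and 59.4, 52.1 and 52.2 CPM in siControl libraries (log2 fold change 0.70, limma adjusted p = 2.3e-04). CYP51A1, the cytochrome that removes a methyl group from lanosterol, had 122, 143 and 138 CPM in siAgrin libraries and 84.7, 76.9 and 79.3 CPM in siControl libraries (log2 fold change 0.74, limma adjusted p = 3.1e-04). CYP51A1 overlaps AKAP9 on the other strand. The step after CYP51A1 is a double bond reduction that either of a pair of proteins can carry out. LBR, which also tethers chromatin to the nuclear envelope, had 203, 173 and 193 CPM in siAgrin libraries and 229, 191 and 192 CPM in siControl libraries. TM7SF2, the reductase of the endoplasmic reticulum, had 6.18, 7.84 and 7.66 CPM in siAgrin libraries and 8.48, 8.21 and 8.14 CPM in siControl libraries. LBR overlapped between the groups, whereas all siAgrin values of TM7SF2 were below the siControl values, as for 24.9% of all tested genes. Neither LBR nor TM7SF2 passed. TM7SF2 overlaps VPS51 on the same strand. The 95% interval of the log2 fold change was -0.30 to 0.10 for LBR and -0.41 to 0.03 for TM7SF2. Per kilobase of exon LBR stood at 33.3 CPM and TM7SF2 at 2.12 CPM in siAgrin, against 35.7 and 2.43 CPM in siControl libraries, so LBR made up most of this step's transcript in both groups.

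All 6 listed genes after that step were higher in siAgrin. MSMO1, the oxidase of the remaining methyl groups, had 145, 203 and 184 CPM in siAgrin libraries and 90.0, 76.8 and 83.5 CPM in siControl libraries. This was a ratio of means of 2.12 (log2 fold change 1.07, standard error 0.117, limma adjusted p = 6.5e-04). Its partners in demethylation, NSDHL and HSD17B7, rose by 0.55 and 0.67 on the log2 scale (limma adjusted p = 3.0e-04 and 5.6e-04). NSDHL had 44.0, 40.3 and 42.0 CPM in siAgrin libraries and 29.1, 27.9 and 28.6 CPM in siControl libraries. HSD17B7 had 12.7, 11.9 and 12.2 CPM in siAgrin libraries and 8.12, 7.10 and 7.37 CPM in siControl libraries, and has a pair of named pseudogenes in GENCODE that could share its reads. The groups of both genes lay apart by more than their spread.

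EBP, which moves a ring double bond, had 103, 114 and 105 CPM in siAgrin libraries and 74.5, 69.0 and 70.1 CPM in siControl libraries. The desaturase gene SC5D had 78.0, 73.0 and 77.2 CPM in siAgrin libraries and 51.8, 43.2 and 43.8 CPM in siControl libraries. DHCR7, the reductase that ends a route to cholesterol, had 129, 149.9 and 133 CPM in siAgrin libraries and 100.4, 86.7 and 92.8 CPM in siControl libraries. The log2 fold changes of EBP, SC5D and DHCR7 were 0.59, 0.72 and 0.56, with limma adjusted p-values of 2.8e-04, 4.7e-04 and 0.0012. The named list does not hold an enzyme for every step of either branch.

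Among the 16 fatty acid genes 5 were higher (31.25%), 2 were lower (12.5%) and 9 did not pass, with a median log2 fold change of 0.23. Over all tested genes 9.14% were higher and 9.07% lower. Both lower calls were lost without siAgrin 3 or without any 1 of the siControl libraries. The number higher was 1 without siAgrin 3, siControl 2 or siControl 3, 3 without siControl 1 and 8 without siAgrin 1. The genes that supply carbon and reducing power were higher, the carboxylase and the synthase did not pass, and the main desaturase was lower. ACLY, which splits citrate to cytosolic acetyl-CoA, had 508, 542 and 519.8 CPM in siAgrin libraries and 450.4, 387 and 411 CPM in siControl libraries (log2 fold change 0.33, limma adjusted p = 0.0056). ACSS2, which makes acetyl-CoA from acetate, had 70.8, 102 and 86.3 CPM in siAgrin libraries and 59.0, 50.7 and 55.2 CPM in siControl libraries (log2 fold change 0.63, limma adjusted p = 0.0060). The malic enzyme gene ME1, a source of NADPH, had 96.5, 95.8 and 102 CPM in siAgrin libraries and 80.4, 69.0 and 73.9 CPM in siControl libraries (log2 fold change 0.40, limma adjusted p = 0.0022). All 3 genes were higher in each siAgrin than in any siControl library, as were 25.0% of all tested genes. The ACLY, ACSS2 and ME1 calls were lost when siAgrin 3, siControl 2 or siControl 3 was left out, at adjusted p-values of 0.031, 0.032 and 0.017 without siAgrin 3, 0.029, 0.031 and 0.012 without siControl 2 and 0.031, 0.027 and 0.015 without siControl 3, and that of ACSS2 also without siControl 1 (limma adjusted p = 0.014).

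ACACA, acetyl-CoA carboxylase, commits acetyl-CoA to fatty acids and had 120.4, 109 and 115 CPM in siAgrin libraries against 118, 113 and 113 CPM in siControl libraries. The groups overlapped, and the 95% interval of its log2 fold change was -0.11 to 0.12. FASN, fatty acid synthase, had 504, 769 and 605 CPM in siAgrin libraries and 530.1, 438 and 481 CPM in siControl libraries. The mean of FASN was 626 ± 133 CPM in siAgrin and 483 ± 46.3 CPM in siControl libraries (SD, n = 3 each), and it did not pass (log2 fold change 0.36, 95% interval 0.03 to 0.69, limma adjusted p = 0.084). Here siAgrin 1 lay below siControl 1, and without siAgrin 1 FASN passed at a log2 fold change of 0.50 (limma adjusted p = 0.0095).

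SCD, the desaturase that puts the first double bond into saturated chains, had the highest level of the 36 per kilobase of exon, at 217 CPM in siAgrin and 345 CPM in siControl libraries, and was 1 of the 2 that fell. It lies on the plus strand of chromosome 10 (GRCh38, 100347233 to 100364826). It measured 918, 1424 and 1072 CPM in siAgrin libraries against 1923, 1736 and 1775 CPM in siControl libraries. Every siAgrin library was below every siControl library, as was the case for 24.9% of all tested genes, and siAgrin 2 was nearest to the siControl values. The mean was 1138 ± 259.6 CPM in siAgrin and 1811 ± 98.8 CPM in siControl libraries (SD, n = 3 each), a log2 fold change of -0.69 (standard error 0.144, limma adjusted p = 0.0083). The SCD call was lost without siAgrin 3, siControl 1, siControl 2 or siControl 3 (limma adjusted p = 0.044, 0.029, 0.031 and 0.033), and with no filter on low genes (limma adjusted p = 0.026).

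SCD and FASN took the same order over the libraries of each group. In siAgrin libraries both were lowest in siAgrin 1 and highest in siAgrin 2, and in siControl libraries both were lowest in siControl 2 and highest in siControl 1. These places were common among the 36 genes and not particular to this pair. Of the 36, 25 were lowest in siAgrin 1, 22 highest in siAgrin 2, 26 lowest in siControl 2 and 33 highest in siControl 1. The ratio of SCD to FASN, singled out after the values were seen, varied less within a group, relative to its mean, than either gene did. It was 1.82, 1.85 and 1.77 in siAgrin libraries against 3.63, 3.97 and 3.69 in siControl libraries, with means of 1.81 ± 0.0409 and 3.76 ± 0.181 (SD, n = 3 each). For this ratio the exact permutation test also reached its floor (two-sided p = 0.1).

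**Figure D3:**
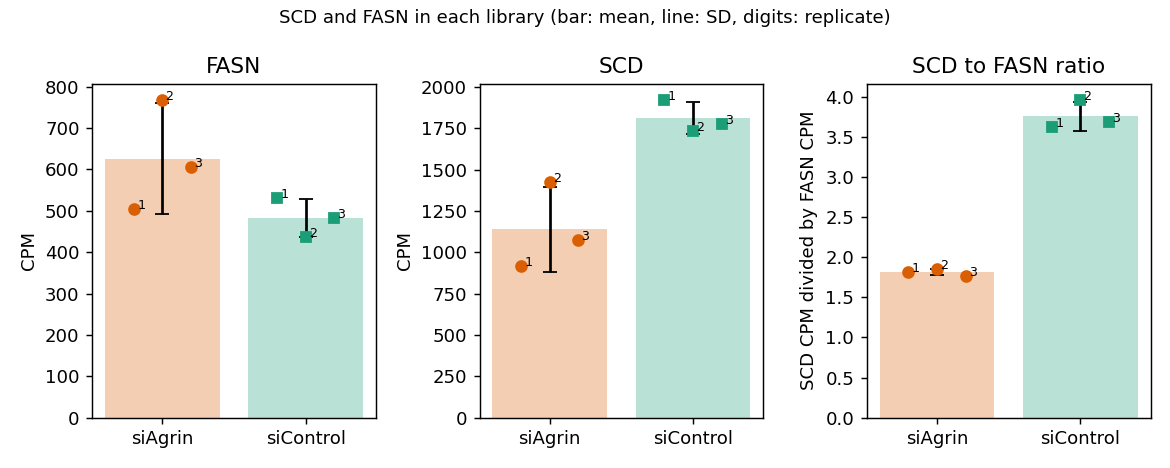
FASN in CPM (left), SCD in CPM (middle) and SCD divided by FASN (right) in each library, with bars for the mean, lines for the SD and digits for the replicate. FASN overlaps between the groups, whereas the ratio lies between 1.77 and 1.85 in siAgrin and between 3.63 and 3.97 in siControl libraries.

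The polyunsaturated desaturases FADS1 and FADS2, which overlap on opposite strands of chromosome 11, were lower in each siAgrin than in any siControl library. The same held for 24.9% of all tested genes, and only FADS1 was called. FADS1 had 83.9, 89.6 and 81.6 CPM in siAgrin libraries and 102, 96.5 and 99.7 CPM in siControl libraries. It fell by 0.23 on the log2 scale (standard error 0.048, limma adjusted p = 0.0088). The FADS1 call was lost with scaling to reads in the listed genes (limma adjusted p = 0.012) and with no filter (limma adjusted p = 0.014). It was also lost with any single library left out other than siAgrin 2, at limma adjusted p-values of 0.014 without siAgrin 1, 0.050 without siAgrin 3 and 0.030, 0.028 and 0.041 without siControl 1, 2 and 3. FADS2 had 9.89, 9.39 and 9.03 CPM in siAgrin libraries and 10.2, 10.5 and 10.3 CPM in siControl libraries and did not pass (log2 fold change -0.13, 95% interval -0.27 to 0.02).

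Of 4 elongases ELOVL1 was higher and the other 3 did not pass. ELOVL1, which extends saturated chains to very long ones, had 97.0, 104 and 101 CPM in siAgrin libraries and 83.7, 86.4 and 86.1 CPM in siControl libraries (log2 fold change 0.23, limma adjusted p = 0.0043). The groups of ELOVL1 did not overlap, but the call was lost without siAgrin 3 or any siControl library (limma adjusted p = 0.029 without siAgrin 3, and 0.015, 0.023 and 0.023 without siControl 1, 2 and 3). ELOVL6, which extends palmitate to stearate and so makes the substrate of SCD, had 72.3, 63.8 and 66.5 CPM in siAgrin libraries and 62.0, 54.1 and 53.5 CPM in siControl libraries. It did not pass in limma (log2 fold change 0.26, adjusted p = 0.025) and passed in DESeq2 (adjusted p = 0.0078). ELOVL5, an elongase of polyunsaturated chains, had 101, 123 and 114 CPM in siAgrin libraries and 111, 103 and 107 CPM in siControl libraries, which overlap (log2 fold change 0.08, 95% interval -0.09 to 0.24). ELOVL4, which makes the ultra-long chains of epidermal ceramides, was close to the lower limit at 1.04, 1.16 and 1.50 CPM in siAgrin libraries and 1.10, 0.606 and 0.838 CPM in siControl libraries. Its 95% interval of -0.01 to 0.75 holds both no change and a rise.

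The acyl-CoA synthetases, which activate fatty acids for use, shifted by small amounts and none passed. ACSL1 had 41.7, 47.6 and 43.5 CPM in siAgrin libraries and 39.2, 36.1 and 37.2 CPM in siControl libraries. ACSL4, which prefers arachidonate, had 68.2, 81.6 and 79.8 CPM in siAgrin libraries and 68.1, 63.3 and 63.0 CPM in siControl libraries. ACSL3, the synthetase of nascent lipid droplets, had 289.8, 334 and 308 CPM in siAgrin libraries and 366, 352 and 349 CPM in siControl libraries. The groups did not overlap in any of the 3 genes. This was common, since 25.0% of all tested genes had every siAgrin library above every siControl library and 24.9% had every siAgrin library below. The log2 fold changes were 0.23, 0.23 and -0.20 for ACSL1, ACSL4 and ACSL3 (limma adjusted p = 0.019, 0.036 and 0.031). DESeq2 also called ACSL1 (adjusted p = 0.0074). Without siAgrin 1 both ACSL1 and ACSL4 passed (limma adjusted p = 0.0084 and 0.0023), and without siAgrin 2 ACSL3 did (limma adjusted p = 0.0039).

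PLIN2, which encodes the coat protein of lipid droplets, had the largest log2 fold change, in either direction, of the 16 fatty acid members. It measured 127, 128 and 131 CPM in siAgrin libraries and 66.5, 71.1 and 77.9 CPM in siControl libraries, so that the siAgrin libraries lay within 5 CPM of each other and above every siControl library. The mean was 128 ± 2.03 CPM in siAgrin and 71.8 ± 5.75 CPM in siControl libraries (SD, n = 3 each), a log2 fold change of 0.84 (standard error 0.059, limma adjusted p = 1.5e-04).

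Many of the 21 higher genes shared an order of the replicates. In siAgrin libraries 14 of the 21 were highest in siAgrin 2 and 16 were lowest in siAgrin 1. In siControl libraries 19 of the 21 were highest in siControl 1 and 17 were lowest in siControl 2. In all 21 the lowest siAgrin library was still above the highest siControl library, which follows largely from their being called. Of all 36 genes 24 had every siAgrin library above every siControl library and 6 had every siAgrin library below. Over all tested genes these shares were 25.0% and 24.9%. Over all 36 genes the median deviation from the group mean was -0.059, 0.064 and 0.0087 on the log2 scale in siAgrin 1, 2 and 3, and 0.092, -0.060 and -0.020 in siControl 1, 2 and 3. The median log2 fold change over the 36 genes was 0.46.

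Promoter letters that the choice of genes did not use were counted in the 32 entries, on both strands and over the same 300 bases, as a description without a test. CCAAT was found in 14 of 18 promoters of genes that were higher (77.8%), in 5 of 14 promoters of the other members (35.7%) and in 34.6% of all 35116 promoters of the table. Unlike the members, these 35116 were not limited to tested genes or to 1 entry per gene, so the shares come from unlike sets. GGGCGG, the core of the GC box bound by Sp1, was in 17 of the 18 (94.4%), in 10 of the 14 (71.4%) and in 45.0% of all promoters. TCACNCCAC, a form of the sterol regulatory element, was in none of the 32 and in 1.13% of all promoters, which says only that these letters are not in these windows. The 18 promoters of higher genes held 35 CCAAT matches, of which 32 began within 200 bases upstream of the start, and 10 of the 18 held more than 1. MVK and NSDHL held 5 matches each, of which NSDHL had an overlapping pair on opposite strands. CYP51A1, IDI1, ME1 and PLIN2 were higher without a match in the entries used. Those of IDI1 and PLIN2 do not cover the GENCODE start of the gene, where letters were not counted. SCD, which was lower, held 2 matches that began 229 and 186 bases upstream of the start. No motif match is shown here to be bound.

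**Figure D4:**
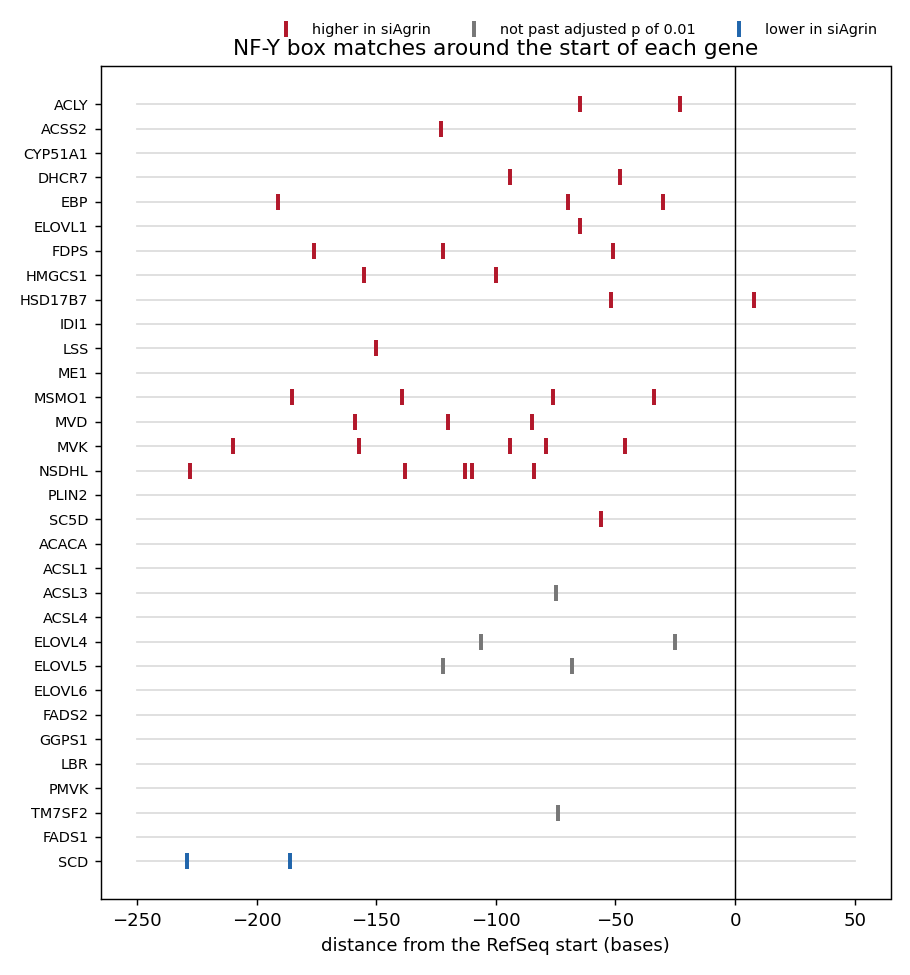
Distance of each NF-Y box match from the RefSeq start (x axis, in bases) for the 32 genes with a promoter entry, grouped from top to bottom into genes that were higher, not past the threshold and lower in siAgrin. Of the 18 higher genes 14 have at least 1 match, against 5 of the other 14.

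Genes of neighbouring pathways were counted from 6 further lists, beside 9.14% called higher and 9.07% called lower over all tested genes. Of 16 tested genes of sterol control and transport 1 was higher (6.25%) and 2 were lower (12.5%), close to these shares. SREBF1, which encodes the SREBP that favours fatty acid genes, had 125, 195 and 138 CPM in siAgrin libraries and 306, 332 and 318 CPM in siControl libraries (log2 fold change -1.09, standard error 0.143, limma adjusted p = 0.0013). The groups did not overlap. Of the siAgrin libraries siAgrin 2 was the highest for SREBF1, as it was for 22 of the 36 members, SCD and FASN among them. In siControl libraries SREBF1 was lowest in siControl 1 and highest in siControl 2, the reverse of SCD and FASN. SREBF2, which encodes the SREBP that favours cholesterol genes, averaged 337 CPM in siAgrin and 370.0 CPM in siControl libraries and did not pass (log2 fold change -0.14, limma adjusted p = 0.15), as noted after its values were seen. MBTPS2, a protease that releases SREBP from membranes, had 47.1, 46.9 and 48.9 CPM in siAgrin libraries and 37.8, 39.3 and 37.9 CPM in siControl libraries (log2 fold change 0.31, limma adjusted p = 0.0016). MYLIP, a ubiquitin ligase induced by the oxysterol receptors LXR, had 18.8, 21.3 and 19.9 CPM in siAgrin libraries and 28.5, 29.7 and 27.0 CPM in siControl libraries (log2 fold change -0.50, limma adjusted p = 0.0012). The SREBF1, MBTPS2 and MYLIP calls were lost without siAgrin 3 (limma adjusted p = 0.011, 0.015 and 0.010, the last just above 0.01), and that of MBTPS2 also without siControl 3 (limma adjusted p = 0.012).

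Of 12 genes that use isoprenoids 1 was called, as higher (8.33%, against 9.14% of all tested genes). This was COQ2, of ubiquinone synthesis, with means of 14.7 CPM in siAgrin and 11.1 CPM in siControl libraries (limma adjusted p = 0.0095). Of 16 other genes of fatty acid synthesis and elongation 2 were higher (12.5%, also close to that share) and none lower. At an unadjusted limma p below 0.05 2 were lower, and none was lower in edgeR or DESeq2. The higher ones were HACD2, a dehydratase of the elongation cycle, at 203 CPM in siAgrin and 155 CPM in siControl libraries, and SLC25A1, the mitochondrial citrate carrier, at 106 CPM in siAgrin and 90.5 CPM in siControl libraries (limma adjusted p = 0.0027 and 0.0092). Of 9 glycerolipid storage genes 1 was lower (11.1%, against 9.07% of all tested genes). It was PNPLA2, the triglyceride lipase of droplets, at 40.5 CPM in siAgrin and 54.1 CPM in siControl libraries (log2 fold change -0.41, limma adjusted p = 0.0077). The COQ2 call held in 1 of the 6 fits that left out a library, those of SLC25A1 and PNPLA2 in 2 each and that of HACD2 in 3. The limma adjusted p reached 0.051 without siAgrin 3 for COQ2, 0.038 without siControl 3 for SLC25A1, 0.040 without siControl 2 for PNPLA2 and 0.020 without siAgrin 3 for HACD2.

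Fatty acid oxidation had 3 of 12 genes higher (25%, against 9.14% of all tested genes) and none lower. At an unadjusted limma p below 0.05 1 was lower, and none was lower in edgeR or DESeq2. CPT1A, the gate of fatty acid entry to mitochondria, had 191, 174 and 186 CPM in siAgrin libraries and 143, 134 and 141 CPM in siControl libraries (log2 fold change 0.40, limma adjusted p = 0.0011). CPT2 and the hydratase gene ECHS1 were also higher, at log2 fold changes of 0.29 and 0.31 (limma adjusted p = 0.0038 and 0.0016). Without siAgrin 3 all 3 calls were lost (limma adjusted p = 0.010 for CPT1A, just above 0.01, 0.025 for CPT2 and 0.014 for ECHS1), and CPT2 was called in 2 and ECHS1 in 4 of the 6 such fits. Of 8 genes that supply electrons to the sterol and desaturase steps 1 was higher (12.5%) and none lower in limma, with 2 lower at an unadjusted p below 0.05. In edgeR 1 was higher and none lower, and in DESeq2 3 were higher and 1 was lower.

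**Figure D5:**
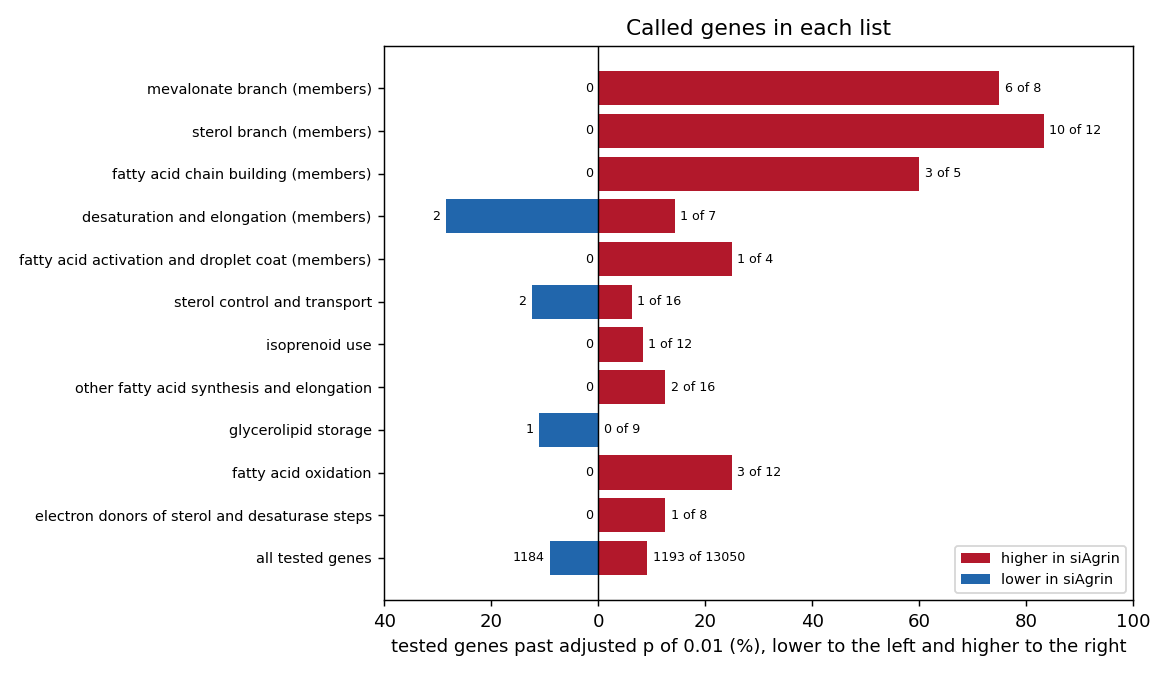
Share of tested genes called at an adjusted p below 0.01 (x axis, in percent) for each list, with genes lower in siAgrin to the left and genes higher to the right, and their numbers beside the bars. The mevalonate and sterol branches have 6 of 8 and 10 of 12 genes higher, against 1193 of 13050 for all tested genes.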

How the data were processed

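RNA of 3 siAgrin and 3 siControl HaCaT libraries was measured by polyA RNA sequencing with a stranded Illumina kit. Per the labels and the study's methods, single reads were aligned with STAR 2.6.1d to hg38, handled with SAMtools, counted per gene with HTSeq on GENCODE and scaled with edgeR. How strand was treated in counting, and any filter on genes, are not given in the sources used here. The labels and the methods name different RNA kits and media. The authors deposited CPM, for 14168 genes listed by symbol, and 0 columns of the table were left unused.

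The CPM were tested with limma 3.58.1 (R 4.3.3, trend, two-sided) on log2(CPM + 0.5), over the 13050 genes that reached 0.5 CPM in 3 or more libraries, with Benjamini-Hochberg adjustment over all of them and calls at an adjusted p below 0.01, the false discovery rate of the study. Dividing each library by its smallest value above 0 gave whole reads for 100% of values (within 0.01 read). On these reads edgeR 4.0.16 called 2360 genes and DESeq2 1.42.0 called 3361, against 2377 in limma. The whole reads summed to 40958553 to 43312708 per library. The script was tested on simulated data.

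The members and lists were chosen with earlier results of these data known. Every member is named, as is AGRN, and from the other lists every called gene, since each held fewer than 5, except 1 that is not reported here. Alternatives were other pseudocounts, filters, scalings, tests and thresholds, a replicate block, each library left out, and, chosen after seeing the data, scaling to reads in the listed genes. Exon lengths and overlaps came from GENCODE v44 on GRCh38, and promoters from RefSeq, with the first entry listed for each member.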

Additional observations from a re-analysis of the deposited data

How the results depend on the processing

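Of the 21 members called higher, 16 kept the call in all 17 alternatives, and FDFT1, ACLY, ACSS2, ME1 and ELOVL1 lost it in at least 1. The number called higher was 18 with no filter, 23 in DESeq2, 24 at an adjusted p below 0.05 and 21 under the other pseudocounts, filter and scalings and in edgeR, and ranged from 16 to 24 with 1 library left out. The number called lower was 0 with no filter and 1 with scaling to reads in the listed genes, an alternative chosen after seeing the data, and ranged from 0 to 3 with 1 library left out. The median log2 fold change of the members was 0.52 with 0.1 CPM added, 0.53 with a filter at a mean of 5 CPM, which leaves out ELOVL4, and 0.54 in both edgeR and DESeq2. It ranged from 0.41 to 0.53 with 1 library left out. With 1 library left out the log2 fold change of PMVK ranged from -0.0095 to 0.037 and that of ACACA from -0.030 to 0.044, so that neither kept its sign. No other member changed sign, and AGRN kept its direction and call throughout. Over all tested genes the number called was 2377, against 4802 at an adjusted p below 0.05, and it ranged from 589 without siAgrin 3 to 3370 without siAgrin 2, and was 665 and 741 without siControl 2 and siControl 3. These fits have fewer libraries.

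Replicates are numbered 1 to 3 in both groups, but the labels do not say that a number marks a shared culture. Deviations from the group mean correlated at 0.53, 0.38 and -0.0018 across genes for pairs 1, 2 and 3. For siAgrin 1 and siAgrin 2 the value with the same number was the highest. siAgrin 3 was near 0 with every siControl library (0.031 and -0.038 with siControl 1 and 2), so these values do not decide the pairing. The numbers were not taken as pairs because the labels are silent. With the replicate block 22 members were called higher and 2 lower, and 3966 genes were called in all. The 2 groups of 3 libraries limit every statement above. Calls lost with 1 library left out were not confined to small changes, since they include SCD (log2 fold change -0.69), ACSS2 (0.63), FDFT1 (0.53), ME1 (0.40), ACLY (0.33), ELOVL1 (0.23) and FADS1 (-0.23). The cause was not tested.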
